A study of Homo sapiens with 4 samples.

Results

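The CENP genes described here encode subunits of the constitutive centromere-associated network (CCAN): CENPH, CENPI, CENPK, CENPL, CENPM, CENPN, CENPO, CENPP, CENPQ and CENPU, which older annotations call MLF1IP. The 10 genes were taken from a written list, with every probe set assigned to the gene alone, so that 10 of 19798 measured genes and 20 of 52377 probe sets were members. The list was drawn up with results of these same arrays known, among them the large change of CENPQ, so the members' values are a description. Where members past the threshold of the fit over all genes are counted, the share of all genes past it stands beside the count, and nothing is drawn from the comparison.

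The study used 4 one-colour arrays, each with total RNA of HCT-116 cells. HCT-116 is an established line from a human colorectal tumour, and the cells carry the label dicer-, Dicer being the nuclease that processes microRNA precursors; all groups, the mock transfections included, share this label and the collection at 24 h. One group (1 array) received a miR-124 duplex whose guide strand is segmented (G10.12/P), another (1 array) received a miR-124 duplex whose guide strand is intact (G/P), both at 10 nM, and 2 arrays hold mock-transfected cells. miR-124 is best known from neurons, and the series asks if segmenting its guide strand leaves its activity on messenger RNAs in place. Levels are log2 intensities of the deposited RMA values, so that fold changes are powers of 2. Each duplex has no replicate, and the labels do not say if separate cultures lie behind the mock arrays, so the spread known here is that of the mock pair and may be technical. Whether a lower value reflects less RNA per cell or a different mix of cells in the dish cannot be told apart in bulk RNA. Of 9 epithelial markers written down for the cell type check, 8 were measured and all 8 lay above the median mock level of genes (log2 6.62), while 0 of 5 leukocyte and 0 of 4 endothelial markers and 1 of 6 fibroblast markers (COL1A1) did. With the segmented duplex 0 of these markers passed limma's threshold (adjusted p under 0.05 over all genes), and with the intact duplex 3 epithelial markers (CDH1, ELF3 and CDX2), COL1A1 and the leukocyte marker ITGAM passed as higher. The summed intensity of the fibroblast markers was 650 with the segmented duplex, 925 with the intact duplex, and 476 and 403 in mock; that of the epithelial markers was 16503, 16793, and 14402 and 14655 in the same order. ITGAM stayed dim, at log2 levels of 3.73 (segmented), 4.43 (intact), and 3.33 and 2.74 (mock). The part of these shifts in the members' values was not tested. Across genes the log2 levels of the mock arrays correlated with r = 0.997, and 3.23% of genes stood 1.5-fold or more apart between them, none of the 10 members included.

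The CCAN sits on centromeric chromatin that holds the histone variant CENP-A and stays there through the cell cycle, where it carries the outer kinetochore that binds spindle microtubules in mitosis. Its subunits form smaller complexes: CENP-OPQUR, CENP-LN and CENP-HIKM are named by the letters of their subunits, and CENP-C and CENP-TWSX complete the network. Messenger RNAs of many kinetochore genes are more abundant in dividing than in resting cells.

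With the segmented duplex 3 of the 10 genes passed limma's threshold as lower than mock (CENPO, CENPQ and CENPU) and 0 as higher, where 2.68% of all genes were called lower and 3.31% higher. With the intact duplex 8 of the 10 passed as lower (CENPI, CENPK, CENPL, CENPM, CENPO, CENPP, CENPQ and CENPU) and 0 as higher, where 10.4% of all genes were called lower and 14.5% higher. These counts come from the contrasts that brought the list together and are no support for it. The count of 3 was 5 with each array centred on its median, where 4.27% of all genes were called lower. It was 6 with a pseudocount of 16 (8.13% of all genes called lower), without the 40% of genes of lowest mean level (15.3% of those tested) and under a trended and robust prior (10.3%). Centring also moved the split of all genes called: 845 of 1606 were lower with the segmented duplex, against 531 of 1186 without centring, and 2824 of 5325 with the intact duplex, against 2064 of 4937. The median difference from mock of the 10 genes was -0.60 with the segmented and -1.08 with the intact duplex, beside 0.01 and 0.02 over all genes. By size alone, 5 members stood at least 1.5-fold below both mock arrays with the segmented duplex (4.89% of all genes), and 8 with the intact duplex (9.52% of all genes). CENPH and CENPN were the members whose chosen probe set lay near mock with both duplexes, at differences between -0.07 and 0.09; the sign of CENPH turned when arrays were centred on their medians (-0.02 segmented, -0.10 intact).

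**Figure D1:**
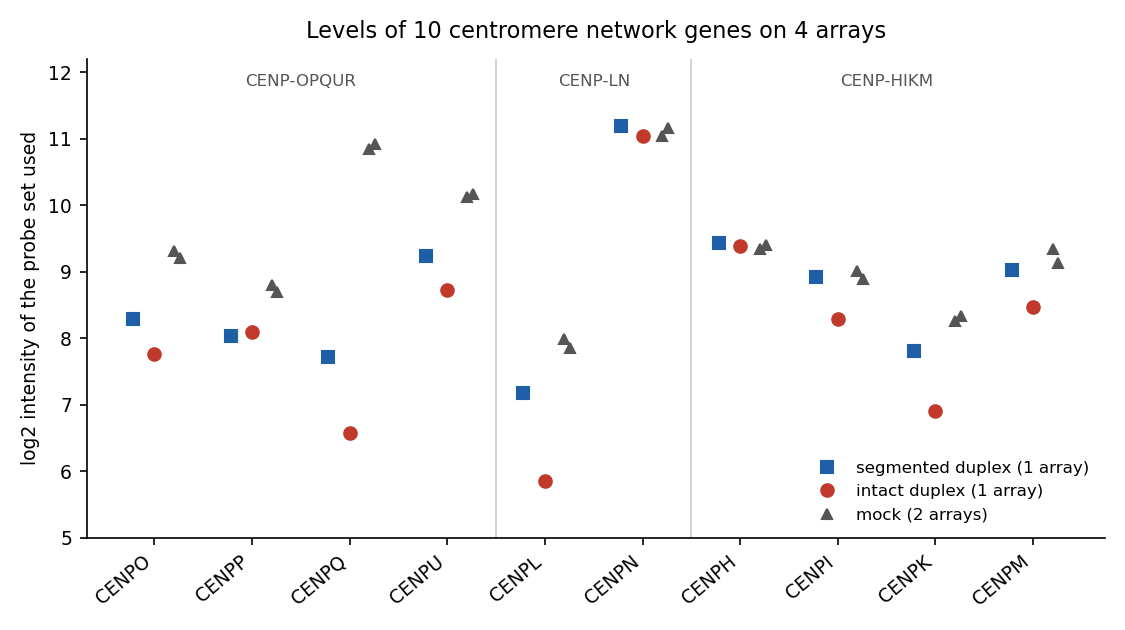
Log2 intensity (vertical axis) of the probe set used for each of the 10 genes (horizontal axis, grouped by complex). Squares are the single array with the segmented duplex, circles the single array with the intact duplex and triangles the 2 mock arrays. CENPQ has the widest gap, at 7.71 and 6.57 with the duplexes and 10.85 and 10.92 in mock, and CENPH and CENPN have nearly none; levels of different genes are not comparable, since each comes from its own probes.

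CENP-OPQUR, the complex that holds CENP-Q and CENP-U, had 4 members on the list, and all 4 were lower than both mock arrays with the segmented duplex (37.5% of all genes) and with the intact duplex (39.8%). CENPQ encodes a subunit that pairs with CENP-U and helps the kinetochore to hold on to microtubules. Its log2 level was 7.71 with the segmented duplex, 6.57 with the intact duplex, and 10.85 and 10.92 on the mock arrays. On the linear scale these are intensities of 210 with the segmented duplex, 95.3 with the intact duplex, and 1843 and 1934 in mock. CENPQ thus stood at 11.1% of the mock mean with the segmented and 5.05% with the intact duplex, 9.01-fold and 19.8-fold lower, while the mock arrays lay 0.07 apart on the log2 scale. Of 19798 genes it had the lowest log2 difference from mock with the intact duplex (rank 1) and rank 3 with the segmented duplex. A single probe set measured it, so no second probe set stands beside these values. The same limit holds for CENPO, CENPL, CENPK and CENPH.

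CENPU encodes the partner of CENP-Q, which is phosphorylated by the mitotic kinase PLK1 and then binds it. Its level was 9.24 with the segmented duplex, 8.73 with the intact duplex, and 10.13 and 10.17 in mock. Both duplex arrays lay below both mock arrays, the segmented one by 1.89-fold and the intact one by 2.68-fold against the mock mean. CENPO, which folds together with CENP-P, had 8.28 with the segmented duplex, 7.76 with the intact duplex, and 9.32 and 9.21 in mock, or 1.98-fold and 2.83-fold lower than the mock mean with the segmented and intact duplex. The order was the same in CENPQ, CENPU and CENPO: the intact array was lowest, the segmented array between, and mock highest, with steps of at least 0.51 where the mock pair spanned at most 0.10. The chosen probe set of CENPP had another order, with 8.04 (segmented), 8.10 (intact), and 8.81 and 8.69 (mock). There the duplex arrays were 0.06 apart, less than the 0.11 between the mock arrays. Both lay below mock, by 1.64-fold with the segmented and 1.57-fold with the intact duplex. A dimmer probe set of CENPP had the order of CENPQ, CENPU and CENPO, at 7.97 (segmented), 7.82 (intact), and 8.56 and 8.33 (mock). The dimmest probe set of CENPP also had the intact array lowest, but its segmented array highest.

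The windows around the annotated start sites of the 3 members past the threshold with both duplexes are shown so that their letters can be compared, and because CENPQ and CENPO share their start region with a gene on the other strand. They run from 250 bases before the start to 50 after it, in RefSeq's annotation of GRCh38.p14, on the strand of the gene. Capitals mark matches on either strand to 3 motifs, of which none overlaps another in these windows. The first is CCAAT or its reverse complement ATTGG, and the second is TTTGAA or its reverse complement TTCAAA. The third, called E2F-like here, is TTCCCGC or else TTGGCGC or else TTGGCGG, with the reverse complements GCGGGAA or else GCGCCAA or else CCGCCAA. CENPQ lies at chr6:49463120-49463419 (plus strand), CENPO at chr2:24793175-24793474 (plus strand) and CENPU at chr4:184734047-184734346 (minus strand).
CENPQ: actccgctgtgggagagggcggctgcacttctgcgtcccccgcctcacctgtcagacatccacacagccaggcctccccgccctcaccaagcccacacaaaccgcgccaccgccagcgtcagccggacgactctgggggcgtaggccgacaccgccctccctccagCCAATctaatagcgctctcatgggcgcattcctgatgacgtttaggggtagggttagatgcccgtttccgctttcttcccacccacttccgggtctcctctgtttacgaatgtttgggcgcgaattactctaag
CENPO: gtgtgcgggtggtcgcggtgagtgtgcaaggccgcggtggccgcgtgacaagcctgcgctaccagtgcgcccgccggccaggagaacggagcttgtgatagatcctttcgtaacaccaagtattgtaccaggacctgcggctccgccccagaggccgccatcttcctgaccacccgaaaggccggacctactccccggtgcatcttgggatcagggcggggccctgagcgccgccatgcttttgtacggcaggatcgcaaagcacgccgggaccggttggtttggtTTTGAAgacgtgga
CENPU: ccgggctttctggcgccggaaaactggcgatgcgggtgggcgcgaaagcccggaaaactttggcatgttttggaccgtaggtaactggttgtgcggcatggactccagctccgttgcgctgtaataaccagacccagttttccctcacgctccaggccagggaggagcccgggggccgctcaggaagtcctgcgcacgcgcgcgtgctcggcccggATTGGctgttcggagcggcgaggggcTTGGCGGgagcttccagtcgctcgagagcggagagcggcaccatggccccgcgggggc

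The CENPQ window held 1 CCAAT match, whose first base lies at position -84 from the start, and no match to the other letters. In CENPO the only match was TTTGAA, at position 37, the start being base 1. The CENPU window held ATTGG at position -34 and TTGGCGG at position -8. Of the 10 genes, 7 had a window in the table (CENPI, CENPK, CENPN, CENPO, CENPP, CENPQ and CENPU). CENPP has 3 windows for different starts, so the 7 genes have 9 windows. CCAAT or its reverse complement was in 5 of the 9 windows (CENPK, CENPN, CENPQ, CENPU and 1 of CENPP), beside 34.6% of all 35116 windows. TTTGAA was in 2 of the 9 (CENPN and CENPO), beside 15.2%, and an E2F-like match in 2 of the 9 (CENPN and CENPU), beside 12.1%. A match is a description of the letters, and no match says only that they are not in the window.

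Several CENP genes start back to back with another gene. Within 1000 bases of an annotated start of 5 members (CENPQ, CENPO, CENPP, CENPN and CENPK) a measured gene starts on the other strand, and the differences of these 5 neighbours from mock lay between -0.24 and 0.34 with the segmented and between -0.53 and 0.44 with the intact duplex. By limma's adjusted threshold 0 of the 5 passed with either duplex, and with unadjusted p-values 0 were under 0.05 with the segmented duplex (27.4% of all genes) and 3 with the intact duplex (39.5% of all genes). With a trended and robust prior 0 passed with the segmented and 4 with the intact duplex, MMUT and PTRHD1 as higher and NOL8 and CMC2 as lower. Under that prior 27.4% of all genes passed with the segmented and 39.4% with the intact duplex. MMUT, the gene of the mitochondrial enzyme methylmalonyl-CoA mutase, starts 117 bases from CENPQ. Its level was 8.31 with the segmented duplex, 8.41 with the intact duplex, and 7.83 and 8.10 in mock. Both duplex arrays lay above both mock arrays, by 0.34 and 0.44 over the mock mean (limma SE 0.17; adjusted p = 0.291 for segmented and 0.146 for intact). PTRHD1 starts 34 bases from CENPO and had 11.68 with the segmented duplex, 11.96 with the intact duplex, and 11.56 and 11.49 in mock. Its differences from the mock mean, 0.15 and 0.44, came with adjusted p-values of 0.488 and 0.0793 in limma. PPWD1, which starts 128 bases from CENPK, differed from mock by 0.03 with the segmented and -0.08 with the intact duplex. NOL8 beside CENPP (-0.24 segmented, -0.45 intact) and CMC2 beside CENPN (-0.19 segmented, -0.53 intact) were lower than mock without passing, with limma adjusted p-values of 0.0731 and 0.0549 for the intact duplex. The difference between a member and its neighbour was not tested, and each gene was measured by its own probes.

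**Figure D2:**
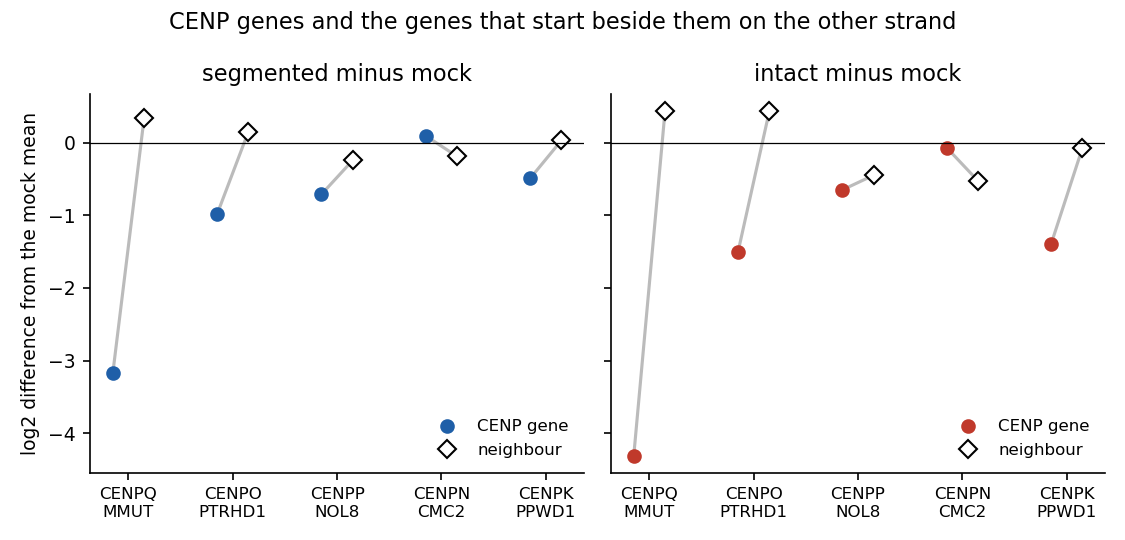
Log2 difference from the mock mean (vertical axis) of 5 CENP genes (filled circles) and of the gene that starts within 1000 bases on the other strand (open diamonds), with the segmented duplex on the left and the intact duplex on the right; each point is 1 array against the mean of the 2 mock arrays. CENPQ lies at -3.17 and -4.31 while MMUT lies at 0.34 and 0.44.

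CENP-LN brings together CENP-N, which recognises the CENP-A nucleosome, and CENP-L, which binds it. CENPL had a level of 7.17 with the segmented duplex, 5.84 with the intact duplex, and 7.99 and 7.86 in mock. Both duplex arrays were below both mock arrays, by 1.68-fold and 4.23-fold against the mock mean, and the intact value was the second lowest of the list relative to mock, after CENPQ. A further probe set listed CENPL together with GAS5 and was not used. CENPN stood apart from CENPL: the brightest of its 4 probe sets had 11.20 with the segmented duplex, 11.04 with the intact duplex, and 11.05 and 11.16 in mock. Relative to the nearer mock array the intact value was -0.01 and the segmented value 0.04, within the 0.11 that separates the mock arrays.

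The other 3 probe sets of CENPN were lower than both mock arrays with both duplexes, so the chosen probe set does not describe the gene as a whole. Relative to mock they differed by -0.34, -0.29 and -1.13 with the segmented and by -0.44, -0.32 and -1.63 with the intact duplex, against 0.09 and -0.07 for the one chosen. The probe set at -1.13 and -1.63 had levels of 4.63 (segmented), 4.13 (intact), and 5.76 and 5.77 (mock). It is dim on every array, and no detection call was used here to say whether it lies above background. The annotation assigns it to a different transcript of CENPN from the brightest probe set. With the mean of all 4 probe sets in place of the brightest, CENPN differed from mock by -0.42 with the segmented and -0.62 with the intact duplex.

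CENP-HIKM, the part of the network that links the CENP-A reader to the outer kinetochore, had all 4 subunits on the list, and they did not move alike. CENPK, the partner of CENP-H, had 7.80 with the segmented duplex, 6.90 with the intact duplex, and 8.26 and 8.34 in mock. It was lower with both duplexes, by 1.41-fold and 2.64-fold. CENPH had 9.43 with the segmented duplex, 9.39 with the intact duplex, and 9.34 and 9.41 in mock. Its intact value lay between the mock arrays and its segmented value 0.03 above the higher one, so its 4 arrays had no order beyond the mock spread.

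CENPI, a large helical subunit of the complex, had 8.92 with the segmented duplex, 8.29 with the intact duplex, and 9.01 and 8.89 in mock. The segmented value lay between the mock arrays, and the intact value was 1.58-fold below their mean. CENPM, a protein with the fold of a small GTPase that does not bind the nucleotide, had 9.03 with the segmented duplex, 8.47 with the intact duplex, and 9.34 and 9.14 in mock. Its segmented value stood at -0.10 from the lower mock array, less than the 0.20 between the mock arrays, and its intact value was 1.71-fold below the mock mean. Over the 4 genes the median difference from mock was -0.12 with the segmented and -0.72 with the intact duplex, against -0.95 and -1.46 over the 4 genes of CENP-OPQUR.

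Across all 20 probe sets, 15 were lower than both mock arrays with the segmented duplex (39.1% of all probe sets) and 19 with the intact duplex (40.6% of all probe sets). At 1.5-fold or more the counts were 7 (6.01%) and 13 (10.8%). Probe sets of 1 gene share its RNA and are not independent. The 3 probe sets of CENPU lay between -0.92 and -0.63 with the segmented and between -1.42 and -1.22 with the intact duplex. The 3 probe sets of CENPI lay between -0.04 and 0.08 with the segmented and between -0.66 and -0.61 with the intact duplex, and the 2 of CENPM at -0.21 and -0.13 with the segmented and at -0.77 and -0.58 with the intact duplex. For CENPP the 3 probe sets parted with the segmented duplex, at -0.71, -0.47 and 0.17, and were all lower with the intact duplex, at -0.65, -0.62 and -0.35. The probe set at 0.17 and -0.35 was the dimmest of the 3, at 4.78 (segmented), 4.26 (intact), and 4.66 and 4.55 (mock).

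**Figure D3:**
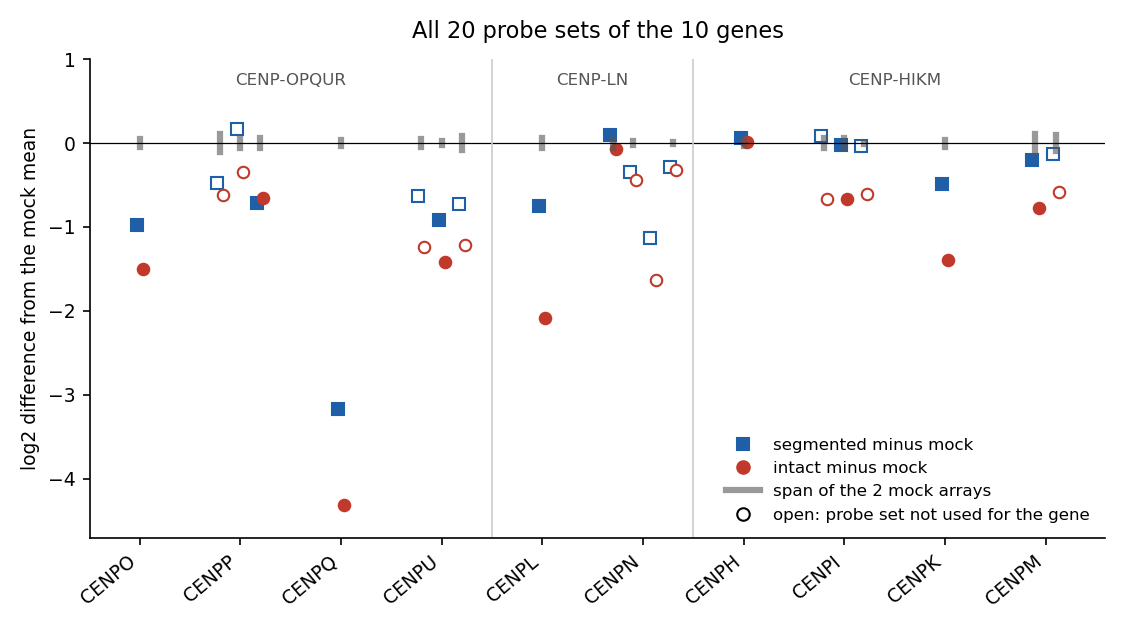
Log2 difference from the mock mean (vertical axis) of all 20 probe sets by gene (horizontal axis): squares for the segmented duplex, circles for the intact duplex, filled for the probe set that stands for the gene, and grey bars for the span of the 2 mock arrays about their mean. The probe sets of CENPI and CENPU lie close together, while those of CENPN run between 0.09 and -1.13 (segmented) and between -0.07 and -1.63 (intact).

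The arrays of the 2 duplexes can be set against each other without the mock arrays. The segmented array was higher than the intact array in 9 of the 10 genes (47.1% of all genes), with a median difference of 0.54 over the members and -0.02 over all genes. At least 1.5-fold higher were CENPL (1.33), CENPQ (1.14), CENPK (0.91) and CENPI (0.64), 4 of the 10, beside 5.02% of all genes. The smallest differences were those of CENPN (0.16), CENPH (0.05) and CENPP (-0.06, or 0.20 with the mean of its 3 probe sets). For CENPQ the segmented value was thus 1.14 above the intact value and at -3.14 from the lower mock array. For CENPI the segmented value lay 0.64 above the intact value and within the mock pair. With limma 0 of the 10 members and 0 of all genes (0.0%) passed the adjusted threshold for segmented minus intact, and at an unadjusted p of 0.05 the counts were 7 of 10 members and 16.5% of all genes. The count of members was 7 with a trended and robust prior, a setting in which 2412 of 19798 genes passed. This comparison has 1 array on each side and takes its spread from the mock pair.

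**Figure D4:**
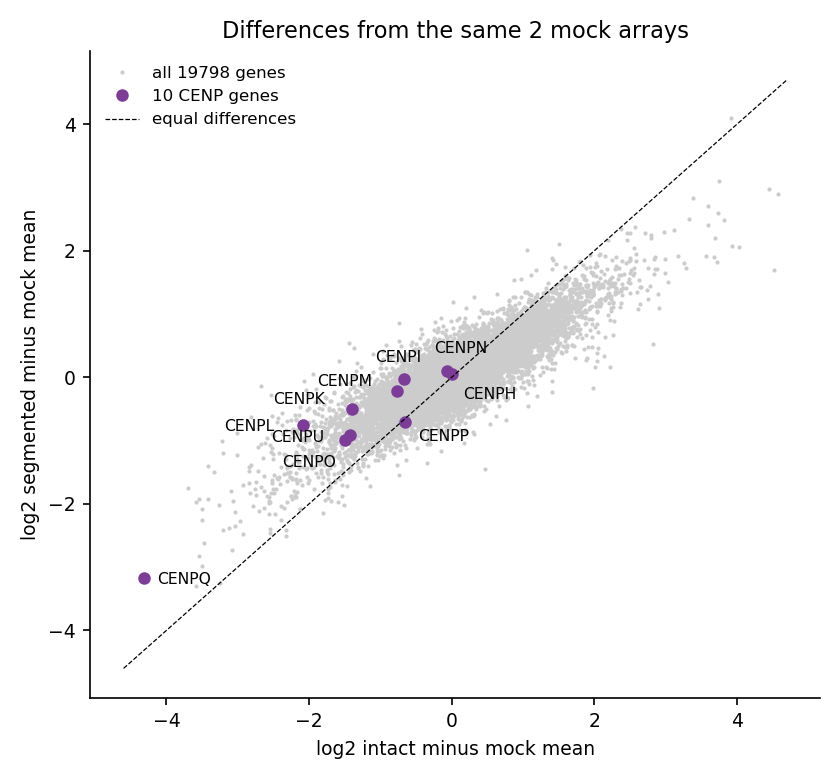
Log2 difference from the mock mean with the segmented duplex (vertical axis) against that with the intact duplex (horizontal axis), for all 19798 genes (grey) and the 10 CENP genes (purple); the dashed line marks equal differences. Both axes use the same 2 mock arrays; CENPQ lies at -3.17 and -4.31, and CENPI and CENPM lie near 0 on the vertical axis only.

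The remaining 6 CCAN subunits were not on the list. Over all genes 10.4% were called lower and 14.5% higher with the intact duplex, and 2.68% and 3.31% with the segmented duplex. With the intact duplex 2 of 6 fell and 0 rose: CENPX, a histone-fold subunit that also serves in DNA repair, fell by 0.89 (limma SE 0.12, adjusted p = 0.0180), and ITGB3BP, which encodes CENP-R of the CENP-OPQUR complex, fell by 0.66 (limma SE 0.12, adjusted p = 0.0324). ITGB3BP had 10.58 with the segmented duplex, 10.46 with the intact duplex, and 11.10 and 11.15 in mock. CENPC, the protein that ties CENP-A chromatin to the outer kinetochore, differed by 0.06 with the segmented and -0.24 with the intact duplex. CENPT differed by -0.35 and -0.48, CENPW by -0.24 and -0.23, and CENPS by 0.21 and 0.30, the segmented duplex first in each pair, and none of the 4 passed. With the segmented duplex 0 of the 6 passed limma's adjusted threshold, 3 had an unadjusted p under 0.05. With a trended and robust prior 3 passed as lower. Of all genes 27.4% had an unadjusted p under 0.05 with the segmented duplex, and 10.3% passed as lower under that prior. The median difference of the 6 was -0.29 with the segmented and -0.36 with the intact duplex.

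Genes that load CENP-A and genes of the outer kinetochore were read from lists written from general knowledge, with earlier results of these data known. Their counts are therefore a description. They stand against 2.68% of all genes called lower and 3.31% higher with the segmented duplex, and 10.4% lower and 14.5% higher with the intact duplex. Under a trended and robust prior these shares were 10.3% and 17.1% with the segmented duplex, and 15.9% and 23.6% with the intact duplex. Of 7 measured CENP-A loading genes, 1 fell with the segmented and 2 with the intact duplex, and 0 rose; under the trended and robust prior 2 were lower and 2 higher with the segmented duplex, and 4 lower and 0 higher with the intact duplex. OIP5, a Mis18 subunit that marks centromeres for loading, had 8.47 with the segmented duplex, 7.76 with the intact duplex, and 10.24 and 10.21 in mock. Its difference from mock was -1.76 with the segmented (limma adjusted p = 0.0349) and -2.47 with the intact duplex (limma adjusted p = 0.00822, SE 0.12 in both). HJURP, the chaperone of CENP-A, fell by 1.18 with the intact duplex and stood at -0.49 with the segmented duplex. CENPA itself, at 11.59 (segmented), 11.09 (intact), and 11.24 and 11.25 (mock), did not pass with either.

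Of the 10 genes of the KMN network, the outer kinetochore complex that binds microtubules, 0 passed with the segmented duplex (4 at an unadjusted p of 0.05), while 4 fell and 0 rose with the intact duplex: ZWINT (-1.42), DSN1 (-1.09), MIS12 (-0.81) and SPC25 (-0.78). With a trended and robust prior 3 were lower and 2 higher with the segmented duplex. The median of the list was -0.07 with the segmented and -0.39 with the intact duplex. At an unadjusted p of 0.05 in limma, 27.4% of all genes passed with the segmented and 39.5% with the intact duplex. Of 4 CENP-named genes outside the CCAN (CENPB, CENPE, CENPF and CENPV), 0 passed with either duplex (0 with the segmented and 2 with the intact at an unadjusted p of 0.05), and their differences from mock ran between 0.11 and 0.31 with the segmented and between -0.38 and 0.43 with the intact duplex. Of 20 spindle checkpoint, passenger and Ska complex genes, 1 fell with the segmented and 7 with the intact duplex, and 0 rose. SKA1, which tracks microtubule ends, fell with both, at -0.83 with the segmented and -2.08 with the intact duplex. Under that prior, where 27.4% of all genes were called with the segmented and 39.4% with the intact duplex, 5 were lower and 1 higher with the segmented duplex, and 12 lower and 1 higher with the intact duplex. SPDL1 and the checkpoint gene BUB1B fell with the intact duplex, at -1.70 and -1.35, and stood at -0.71 and -0.22 with the segmented duplex.

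Cell cycle genes differed from mock on the same arrays. Their lists, too, were written with earlier results of these data known. Of 23 measured S phase genes, 8 fell with the segmented and 20 with the intact duplex, and 0 rose. Over all genes 2.68% were called lower and 3.31% higher with the segmented duplex, and 10.4% and 14.5% with the intact duplex. Those shares also stand beside the counts of G2 and M phase genes. The medians of the S phase genes were -0.63 and -1.62. CCNE2, the gene of cyclin E2, fell by 3.22 with the intact duplex and stood at -1.01 with the segmented duplex (limma adjusted p = 0.0521). GINS2 of the replicative helicase fell with both, at -1.47 with the segmented and -2.84 with the intact duplex, and RRM2, which makes deoxynucleotides, fell by 2.44 with the intact duplex and stood at -0.63 with the segmented duplex. Of 20 genes of G2 and M phase, 0 passed with the segmented duplex (5 at an unadjusted p of 0.05, beside 27.4% of all genes), while 4 fell and 1 rose with the intact duplex, with medians of 0.01 and -0.38. CCNA2 (-1.22), AURKA (-0.82) and TOP2A (-0.73) were among those that fell. With a trended and robust prior 3 were lower and 4 higher with the segmented duplex, or 7 of 20 beside 27.4% of all genes, and 14 lower and 2 higher with the intact duplex, or 16 of 20 beside 39.4%. The difference between the S phase and the G2 and M phase lists was not tested, nor was the part of the cell cycle genes in the values of the CENP genes.

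**Figure D5:**
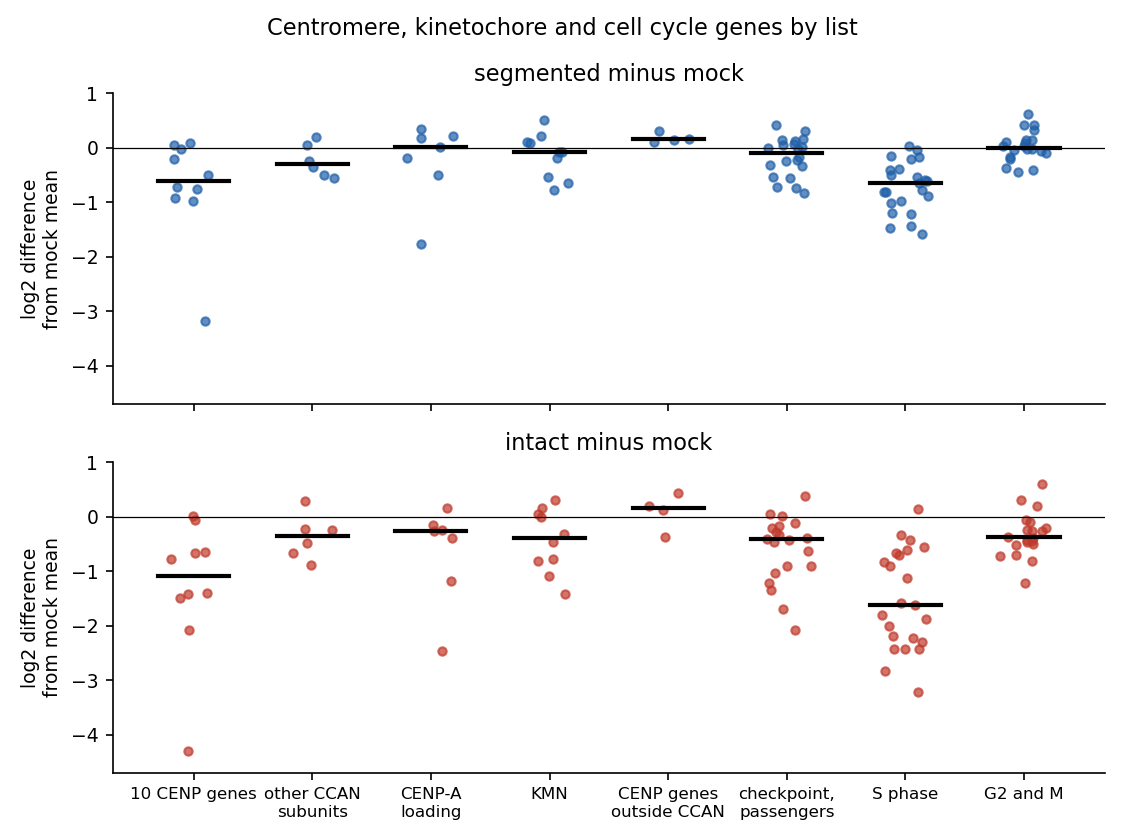
Log2 difference from the mock mean (vertical axis) of the 10 CENP genes and of 7 lists of centromere, kinetochore and cell cycle genes (horizontal axis), with the segmented duplex above and the intact duplex below; each point is a gene and each bar the median of its list. The 10 CENP genes have medians of -0.60 (segmented) and -1.08 (intact), the S phase genes -0.63 and -1.62, and the G2 and M phase genes 0.01 and -0.38.

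The genes nearest to CENPQ in their differences from mock were other strongly lowered genes, none of them a CCAN subunit. CENPQ had the lowest difference of all genes with the intact duplex. CENPL, the next lowest member there, lay at -0.75 with the segmented and -2.08 with the intact duplex. The absence of CCAN genes among the nearest follows from these values and is no further result. Among genes at or above the median mock level, the 5 nearest were found by Euclidean distance between the pairs of log2 differences, over 4 arrays. They were PAPSS2 (distance 0.73), ADI1 (0.83), ATP6V0E1 (0.84), SUCLG2 (1.00) and COL12A1 (1.06). These distances are wider than the SD over all genes of either difference alone, 0.46 with the segmented and 0.67 with the intact duplex. A distance joins both differences, so it and the SD of a single difference are not like measures. PAPSS2, which makes the sulfate donor of the cell, had 5.77 with the segmented duplex, 5.48 with the intact duplex, and 9.08 and 9.05 in mock. COL12A1, a collagen gene, had 7.40 with both duplexes, and 10.65 and 10.64 in mock. For CENPQ segmented minus intact was 1.14, against 0.29 for PAPSS2, 0.52 for ADI1, 0.72 for ATP6V0E1, 0.86 for SUCLG2 and 0.00 for COL12A1.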

How the data were processed

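Biotin-labelled RNA amplified from total RNA was hybridised to the arrays, per the labels' protocols. The deposited intensities are RMA values according to the submitters' processing notes, with background correction, quantile normalization and probe summary; no version is stated. They run between 2.51 and 22268, were taken as linear, and were put on the log2 scale with no pseudocount. Quantile normalization tends to remove a change shared by most genes. The medians of the deposited probe set values still differed, at 45.3 (segmented), 46.3 (intact), and 44.3 and 42.6 (mock).

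Probe sets were named through the platform annotation and updated through Entrez identifiers to RefSeq symbols of GRCh38.p14 (35134 matched, 50 not). Among 52377 probe sets, 35184 carried 1 gene name, 374 carried several and 16819 carried none; those with several or none were not used. Each gene was represented by its probe set of highest mean across the 4 arrays. Promoter windows are RefSeq's; sequences of hsa-miR-124 and of CENPH, CENPL and CENPM promoters are not given.

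Differences were fitted with limma 3.58.1 in R 4.3.3, a mean per group over 4 arrays with eBayes, and called at an adjusted p (Benjamini-Hochberg, 19798 genes) under 0.05. The mock pair gives 1 residual degree of freedom and the prior 2.89, so each lone duplex array is assumed to vary like mock. The number of arrays limits the precision. Alternatives changed the scaling, the pseudocount, the probe set per gene, the filter on dim genes, the prior and the mock arrays used. The members and lists were chosen with earlier results of these data known. Genes named beside members were up to 3 per list with the largest intact difference past the threshold, measured genes starting near a member on the other strand, and the 5 genes nearest to CENPQ; the other CCAN subunits, CENPA, SPC25, the cell type markers and the genes of the 4-member CENP list were named beyond that rule, after their values were seen. CENPJ, GINS1 and TYMS had no probe set of their own.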

Additional observations from a re-analysis of the deposited data

How the results depend on the processing

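The mock pair alone gives the fit its spread, and counts of genes past limma's threshold rose under several settings, while the direction of no member at least 1.5-fold from mock turned. Values below give the segmented duplex before the intact one where both are named. Of 19798 genes, the trended and robust prior called 5415 and 7809 against mock, and 2412 for segmented minus intact. A pseudocount of 16 called 4265 of 19798 (segmented) and 1135 of 19798 (segmented minus intact). Leaving out the dimmest 40% of genes left 11879 tested, of which 4781 and 1850 were called in the same comparisons. Of the 10 CENP genes, 5 were called with the segmented duplex when arrays were centred on their medians. The count was 6 with the pseudocount, 6 without the dimmest genes and 6 with the trended and robust prior. For segmented minus intact 4 members were called with the pseudocount, beside 1135 of 19798 genes. Without the dimmest genes 7 members were called, beside 1850 of 11879. With the trended and robust prior 7 were called, beside 2412 of 19798. The members' median difference from mock was -0.68 and -1.20 with centring, which moved the median of all genes to -0.07 and -0.10, and -0.45 and -0.98 with the mean of all probe sets. Leaving out either mock array leaves no residual degree of freedom, so only values were computed: without mock replicate 1 and without mock replicate 2 the intact median lay between -1.11 and -1.05 and the segmented one between -0.61 and -0.59.

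With the trended and robust prior the genes past the threshold were 3 and 5 for the other CCAN subunits, 4 and 4 for CENP-A loading, 5 (segmented) for KMN, 2 (intact) for CENP genes outside the CCAN, 6 and 13 for the checkpoint list, 18 (segmented) for S phase, 7 and 16 for G2 and M phase, and 4 (intact) for the neighbours, whose alternatives were chosen after seeing the data. Without the dimmest genes they were 3 (segmented) for the other CCAN subunits, 3 (segmented) for CENP-A loading, 4 (segmented) for KMN, 2 (intact) for CENP genes outside the CCAN, 6 and 14 for the checkpoint list, 18 (segmented) for S phase, 6 and 13 for G2 and M phase, and 4 (intact) for the neighbours. With the pseudocount they were 2 (segmented) for the other CCAN subunits, 2 (segmented) for CENP-A loading, 4 (segmented) for KMN, 2 (intact) for CENP genes outside the CCAN, 6 and 12 for the checkpoint list, 16 (segmented) for S phase, 5 and 13 for G2 and M phase, and 3 (intact) for the neighbours. With centring they were 1 (segmented) for KMN, 3 and 11 for the checkpoint list, 9 (intact) for G2 and M phase and 2 (intact) for the neighbours, and with the mean of all probe sets 2 (segmented) for KMN, 2 (segmented) for the checkpoint list and 3 (intact) for the neighbours. The other CCAN list held 6 genes, CENP-A loading 7, KMN 10 and the CENP genes outside the CCAN 4. The checkpoint list held 20, S phase 23, G2 and M phase 20, and 5 neighbours were measured. Shares of all genes called, segmented before intact, were 27.4% and 39.4% with the trended and robust prior. They were 40.2% and 58.5% without the dimmest genes, 21.5% and 35.5% with the pseudocount, and 8.11% and 26.9% with centring. With the mean of all probe sets they were 6.88% and 25.3%. The cause of the shifts in these counts was not tested. No paired analysis was possible because the duplexes have 1 array each and the labels number only the mock arrays.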
